A study of Mus musculus with 6 samples.

Results

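The clustered histone genes encode the bulk of the core and linker histones that cells package new DNA with. They were taken from the authors' deposited table as every row with a symbol that starts with Hist1h, Hist2h, Hist3h or Hist4h, where the digit names the cluster and the letters after it the histone type. The rule found 69 rows that name 70 symbols, of 36699 rows in the table. A pair of symbols stand together in 1 row (Hist2h2aa1 and Hist2h3c1.1), and the Hist3h2a row also names the non-histone gene Trim17.

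The 6 RNA-seq libraries were made from mouse embryonic stem cells of the A2Lox.cre line that carry a Flag-Lef1 transgene under doxycycline control. In the plus_Dox group (3 libraries) embryoid bodies were given doxycycline from day 2 and harvested 24 h later, on day 3. In the minus_Dox group (3 libraries) the same transgenic line was harvested on day 3 without doxycycline. Before suspension culture the cells had grown in serum on primary fibroblast feeders from FVB mice, which were stripped away. The groups therefore share the line, the transgene and the culture, all libraries come from 1 line, and cells without the transgene that received doxycycline were not analysed here. The comparison was made to find genes regulated by Lef1, a DNA-binding partner of β-catenin in the Wnt pathway. Lef1 itself stood at 51.0 FPKM (fragments scaled to transcript length and to library size) in plus_Dox and 7.56 FPKM in minus_Dox cells in the authors' deposited table, a 6.75-fold difference (95% interval 5.21 to 8.74). Transgene and endogenous Lef1 transcripts are summed in that row.

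Replication-dependent histone genes are short and mostly without introns, and their transcription and mRNA stability peak in S phase. Their mRNAs normally end without a poly(A) tail, a few bases after a conserved stem-loop that the stem-loop binding protein recognises. Some of the genes also make polyadenylated forms that read through the stem-loop to a downstream poly(A) signal, which is best known in differentiating and non-dividing cells. The libraries here were made from RNA captured on oligo-dT beads, so the levels below are those of captured, mainly polyadenylated transcripts, and the total histone mRNA of the cells was not measured.

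The stem-loop is shown first because it is the 3′ end that sets these mRNAs apart. In GENCODE vM21 transcripts (build GRCm38) a 16-base stem-loop pattern (a GG-led stem, a loop of T and A, and a CC end, with free bases between) was found on the transcript strand in 46 of the 70 member genes, against 0.729% of 141767 transcripts of all genes. The 16 bases of the stem-loop are in capitals with 5 transcript bases on each side, for the 3 genes that passed the test and, after them, for 3 of the most abundant genes that did not.
Hist1h3c: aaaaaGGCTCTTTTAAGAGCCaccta
Hist1h4b: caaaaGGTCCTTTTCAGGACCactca
Hist1h2ae: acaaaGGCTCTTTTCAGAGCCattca
Hist3h2ba: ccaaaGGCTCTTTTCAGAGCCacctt
Hist1h1c: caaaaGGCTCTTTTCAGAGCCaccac
Hist1h4i: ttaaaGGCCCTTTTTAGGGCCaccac
The annotated transcripts run on past the stem-loop by 74 bases for Hist1h3c (stem-loop at chr13:23745047-23745062, minus strand), 28 for Hist1h4b (chr13:23757366-23757381, plus strand) and 151 for Hist1h2ae (chr13:23570668-23570683, minus strand). They run on by 169 bases for Hist3h2ba (chr11:58949349-58949364, plus strand), 840 for Hist1h1c (chr13:23739512-23739527, plus strand) and 330 for Hist1h4i (chr13:22040966-22040981, minus strand). The form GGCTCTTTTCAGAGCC, seen in Hist1h2ae, Hist3h2ba and Hist1h1c, was the commonest, in 26 genes. A poly(A) hexamer (AATAAA or ATTAAA, transcript strand) lay in the last 40 bases of an annotated transcript in 17 member genes, against 32.6% of all transcripts.

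Of the 69 rows, 65 were above 0 FPKM in both groups, 17 reached 1 FPKM in the higher group and 3 reached 5 FPKM. The authors' test was run on 60 rows and not on 9, whose highest value was 0.0626 FPKM and 1 of which (Hist2h2aa2) was at 0 in both groups. The untested rows include the testis-type genes Hist1h1t (0.0298 FPKM in plus_Dox and 0.0563 in minus_Dox), Hist1h2aa (0 FPKM in plus_Dox and 0.0302 in minus_Dox) and Hist1h2ba (0.0626 FPKM in plus_Dox and 0.0221 in minus_Dox). The other untested rows were Hist1h2bn, Hist1h2br, Hist2h2ab, Hist2h3c2 and Hist3h2bb-ps, an annotated pseudogene. Summed over all 69 rows, cluster histones came to 66.6 FPKM in plus_Dox and 47.3 FPKM in minus_Dox cells. The 13 genes listed as histone variants outside the clusters, Hp1bp3 and H2afx included, summed to 4960 FPKM in plus_Dox and 3740 FPKM in minus_Dox cells. FPKM is scaled to transcript length but not to the share of each mRNA that oligo-dT beads capture. These sums therefore do not give the relative expression of cluster and variant genes. The table gives 1 value per group over 3 libraries, and neither the spread between single libraries nor their depth could be read from it.

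**Figure D1:**
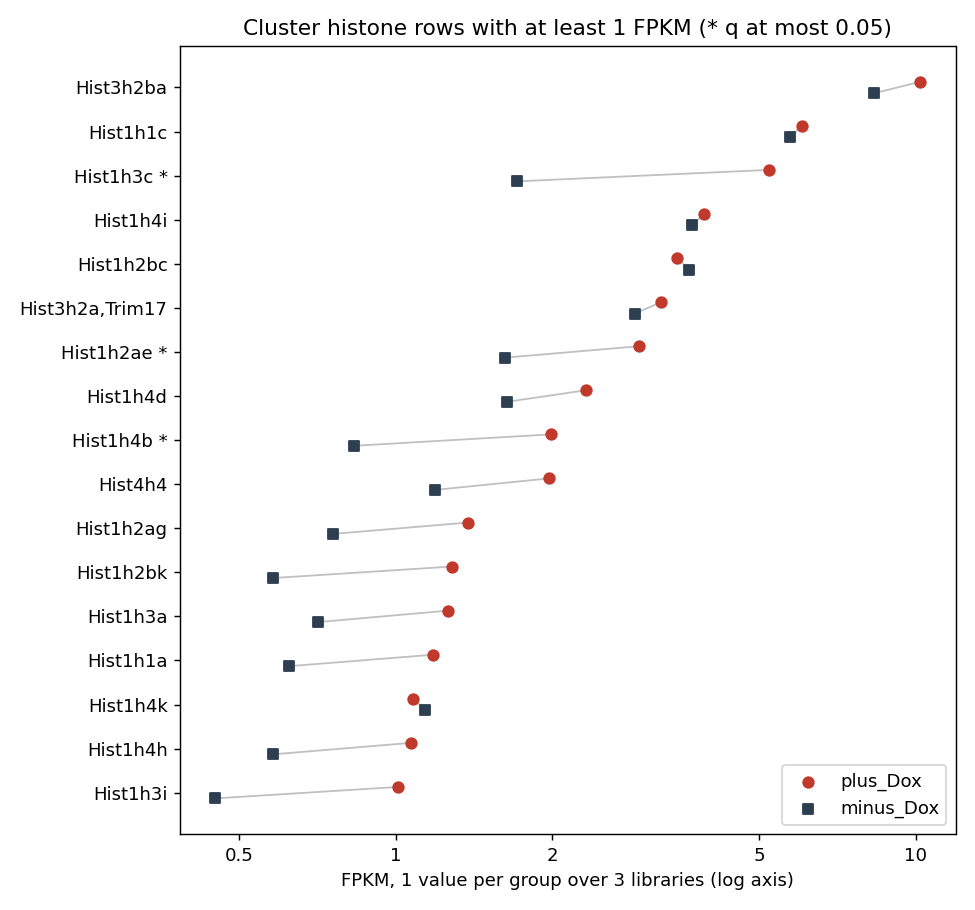
FPKM (log axis) of the 17 cluster histone rows that reached 1 FPKM in either group, 1 row per line, with the plus_Dox value as a circle and the minus_Dox value as a square; an asterisk marks a q-value of at most 0.05. The plus_Dox value is the higher one in 15 of the 17 rows, and the widest gap among the 3 marked rows is that of Hist1h3c, 5.21 against 1.71 FPKM.

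In plus_Dox cells 3 cluster histone genes rose and none fell: Hist1h3c, Hist1h4b and Hist1h2ae, which encode core histones H3, H4 and H2A. They are 5.0% of the 60 tested rows, where 8.98% of all 18114 tested rows rose (q-value at most 0.05 in the authors' deposited table) and 3.22% fell, so that calls were no more frequent among cluster histones than in the table as a whole. At an unadjusted p under 0.05 in the authors' test (Cuffdiff), 14 members were higher and 1, Hist1h3b, was lower, which is 23.3% higher where all tested rows gave 17.2% higher and 6.14% lower. The level alone was higher in plus_Dox cells in 47 of 60 tested rows (78.3%) and lower in 13, beside 64.7% higher among all tested rows. The median log2 fold (plus_Dox over minus_Dox) was 0.72 over the 59 rows with a finite value, with quartiles at 0.11 and 0.97, beside 0.20 over all tested rows. Relative to that general shift of 0.20 it was 0.52, with 40 of 59 members above it, and with a trend on transcript GC content and length removed it was -0.04. These are FPKM of bulk RNA, in which more RNA per cell and more cells of 1 kind cannot be told apart.

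The precision behind single members was low. The SE of a log2 fold, worked out from the authors' statistic, had a median of 0.56 among the members and 0.31 among all tested rows. Many members also share sequence with other genes, so that reads may be shared between copies. In 29 of 59 tested members at least 50% of the 50-base stretches of the transcript also occur in transcripts of other genes. The median share was 49.7%. Of the 43 tested members under 1 FPKM in both groups none passed, by the authors' test, and 6 were higher and 1 lower at an unadjusted p under 0.05. At that level 1.88% of all tested rows rose. Among the 17 members that reached 1 FPKM in either group, the 3 named genes rose, where 12.3% of all such rows did. A level at least 2-fold higher was listed for 14 of 59 members, beside 7.15% of all tested rows, and one at least 2-fold lower for 3, beside 2.8%. Of the 14, 10 were among the 42 tested members under 1 FPKM with a finite fold, as were all 3 lower ones, and at that level 15.4% of all tested rows were at least 2-fold higher and 5.76% at least 2-fold lower. With that fold and the q-value together, Hist1h3c and Hist1h4b remained, where 1.9% of all tested rows rose by as much.

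**Figure D2:**
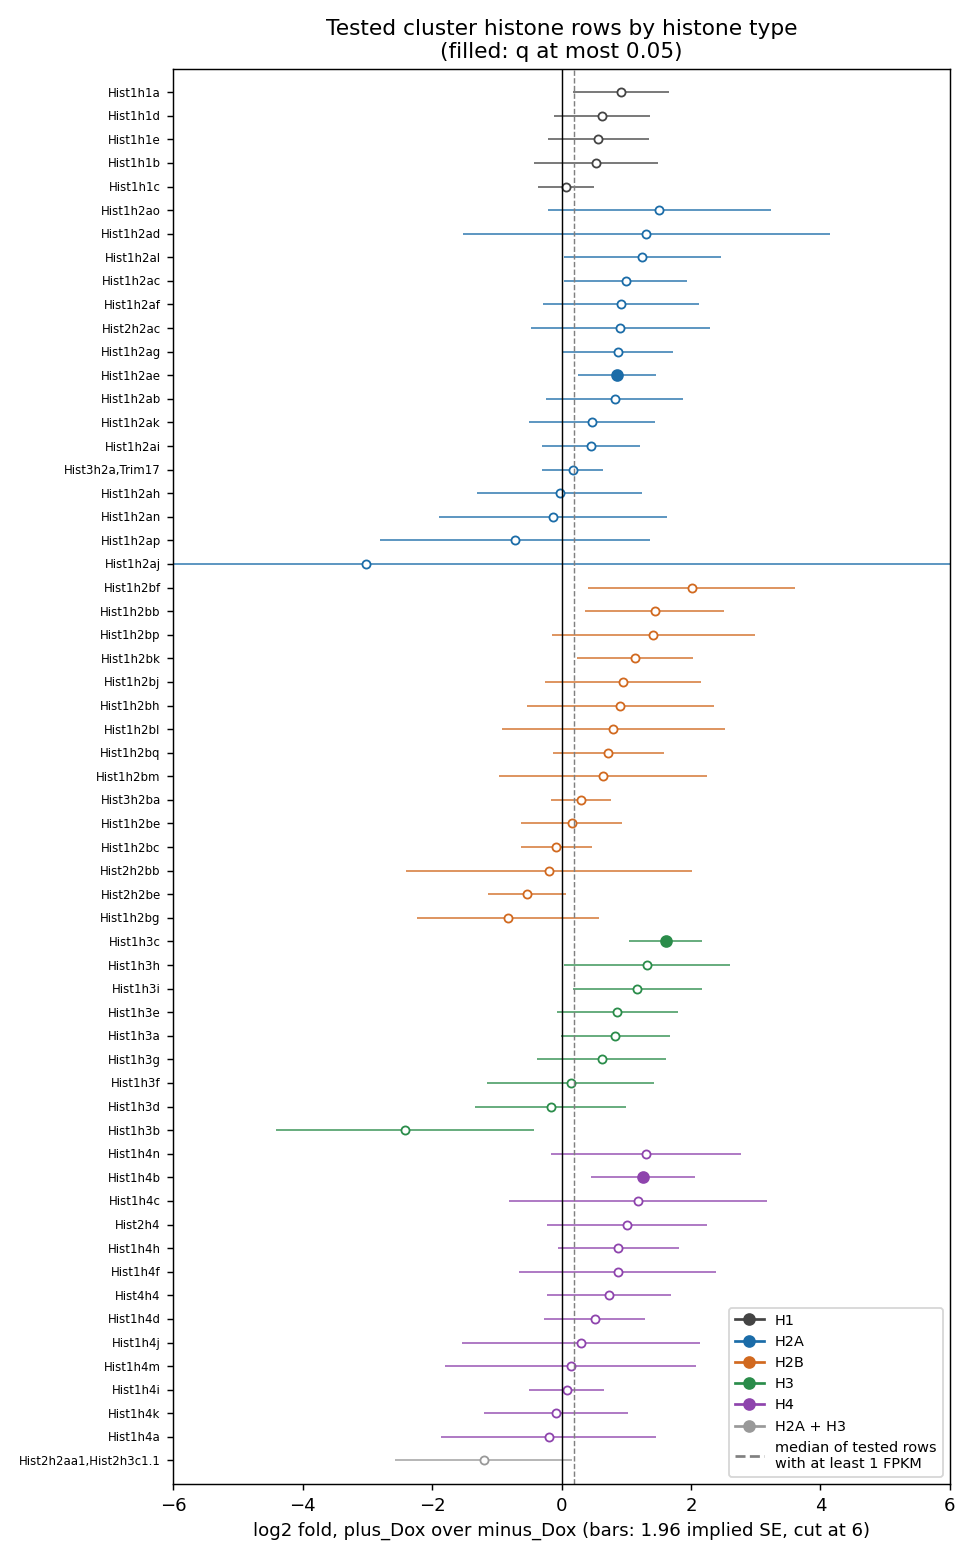
Log2 fold (plus_Dox over minus_Dox) of the 59 tested cluster histone rows with a finite value, sorted within histone type, with bars for the 95% interval (drawn no further than 6) and filled points for a q-value of at most 0.05. Most points lie right of 0, and most bars cross it; the dashed line at 0.20 is the median of all tested rows that reached 1 FPKM.

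Hist1h3c, a histone H3 gene, had 5.21 FPKM in plus_Dox and 1.71 FPKM in minus_Dox cells. The authors' deposited table gives it a log2 fold of 1.61 (SE 0.28), or 3.04-fold with a 95% interval of 2.07 to 4.47, at q = 2.1e-06. It is the only cluster histone row that passed at q of at most 0.01. Its row lies at chr13:23836842-23837471 in mm9, the build of the file. Of the 50-base stretches of its transcript 47.0% also occur in transcripts of other genes, so that reads may be shared between copies and the value carries that uncertainty.

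Hist1h4b, in 1 of the 13 H4 rows, had 1.99 FPKM in plus_Dox and 0.831 FPKM in minus_Dox cells. Its log2 fold in the authors' deposited table was 1.26 (SE 0.40), or 2.39-fold with a 95% interval of 1.39 to 4.1, at q = 0.018. The row spans chr13:23848072-23849489 (mm9), 1418 bases, which is longer than its 397-base GENCODE transcript. The untested row of another gene, 4930558J22Rik, has the same span. Of the 50-base stretches of the Hist1h4b transcript 75.9% are shared with other genes. Hist1h2ae, an H2A gene, had 2.94 FPKM in plus_Dox and 1.62 FPKM in minus_Dox cells, a log2 fold of 0.86 (SE 0.30) and q = 0.036 in the authors' deposited table (chr13:23662386-23663089, mm9). That is 1.82-fold with a 95% interval of 1.21 to 2.73, and 43.2% of its 50-base stretches are shared. After scaling to the median ratio, which gives 618 rows higher and 1087 lower in place of 1626 and 584 as deposited, Hist1h3c still passed with a log2 fold of 1.41, while Hist1h4b (1.06) and Hist1h2ae (0.66) did not. With a trend on transcript GC content and length taken out of all log2 folds, none of the 3 passed, at 0.84 for Hist1h3c, 0.34 for Hist1h4b and 0.20 for Hist1h2ae.

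The promoters of Hist1h3c and Hist1h2ae are shown because the first had the firmest difference of all cluster histone genes and the second shares its promoter region with a neighbour whose level was lower in plus_Dox cells. Each runs from 250 bases before to 50 bases after the start of the gene (RefSeq, GRCm38.p6, minus strand of chr13:23745472-23745771 and of chr13:23571171-23571470), and capitals mark CCAAT or its reverse complement ATTGG, the box bound by NF-Y, and TATAAA or its reverse complement TTTATA.
Hist1h3c: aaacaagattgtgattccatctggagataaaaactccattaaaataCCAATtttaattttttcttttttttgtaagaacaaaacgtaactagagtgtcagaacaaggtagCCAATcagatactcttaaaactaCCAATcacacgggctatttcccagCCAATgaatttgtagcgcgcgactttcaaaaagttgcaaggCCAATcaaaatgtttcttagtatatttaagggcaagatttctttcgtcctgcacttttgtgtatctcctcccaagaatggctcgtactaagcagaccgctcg
Hist1h2ae: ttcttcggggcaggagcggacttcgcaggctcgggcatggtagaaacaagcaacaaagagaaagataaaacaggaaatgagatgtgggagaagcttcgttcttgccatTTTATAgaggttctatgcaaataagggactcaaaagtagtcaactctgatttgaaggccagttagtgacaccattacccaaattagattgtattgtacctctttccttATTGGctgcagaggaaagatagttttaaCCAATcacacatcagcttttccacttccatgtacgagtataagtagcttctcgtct
Hist1h3c has 5 CCAAT boxes in this window and Hist1h2ae has 2, on either strand, with 1 TTTATA. Of the 60 member genes with a RefSeq promoter, 51 (85.0%) hold CCAAT on either strand, beside 37.4% of 32817 promoters, and 58.3% hold TATAAA on either strand, beside 13.6%. The octamer ATTTGCAT, on either strand, is in 14 genes (23.3%) and in 1.74% of all promoters. The core motifs bound by Tcf and Lef factors, CTTTGAT and CTTTGAA, were in 5 member promoters on either strand (8.33%), where 8.65% of all promoters hold at least one. None of the 3 genes that rose is among those 5, whose median log2 fold was 0.91. The median was 0.72 among the 47 tested members without either motif, taken over finite folds only. A window of 300 bases says nothing of binding elsewhere.

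By histone type, no linker histone (H1) gene passed the test, in 5 tested rows with 1 at an unadjusted p under 0.05. All 5 had the higher level in plus_Dox cells as deposited, with a median log2 fold of 0.57, and Hist1h1c turned to -0.12 after median-ratio scaling. Hist1h1c, the most abundant linker histone here, had 6.03 FPKM in plus_Dox and 5.73 FPKM in minus_Dox cells, a log2 fold of 0.07 (SE 0.21) in the authors' deposited table. Hist1h1a had 1.18 FPKM in plus_Dox and 0.624 FPKM in minus_Dox cells (log2 fold 0.92 with an SE of 0.37 in the authors' deposited table, q = 0.089). Its difference is larger than that of Hist1h1c, but no test compared the 2 genes. The other tested linker genes stayed under 1 FPKM, and the authors' deposited table gives log2 folds of 0.53 for Hist1h1b, 0.62 for Hist1h1d and 0.57 for Hist1h1e.

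Among the 16 tested H2A rows only Hist1h2ae passed. The level was higher in plus_Dox cells in 12 and lower in 4, with a median log2 fold of 0.84. Hist1h2ag had 1.38 FPKM in plus_Dox and 0.756 FPKM in minus_Dox cells (log2 fold 0.87 with an SE of 0.43 in the authors' deposited table, q = 0.20). Its fold is as large as that of Hist1h2ae, at a lower level and with a wider error. Hist1h2al, annotated as a processed pseudogene, lies apart from the rest of the cluster at chr13:51298057-51298434 (mm9) and had 0.92 FPKM in plus_Dox and 0.388 FPKM in minus_Dox cells, without passing (q = 0.19 in the authors' deposited table). The lowest log2 fold among tested members, -3.02 for Hist1h2aj in the authors' deposited table, rests on 0.011 FPKM in plus_Dox and 0.0894 FPKM in minus_Dox cells with an SE of 4.8, and that row shares its span with Hist1h2bm.

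None of the 15 tested H2B rows passed the authors' test, and 3 were higher at an unadjusted p under 0.05. Hist3h2ba, the highest of all cluster histone rows, had 10.2 FPKM in plus_Dox and 8.32 FPKM in minus_Dox cells, a log2 fold of 0.30 in the authors' deposited table (SE 0.23, q = 0.50). Hist1h2bc had 3.48 FPKM in plus_Dox and 3.66 FPKM in minus_Dox cells, with a log2 fold of -0.08 (SE 0.27). Those are the 2 most abundant H2B rows, and neither passed the test.

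In 3 less abundant H2B genes the q-value was above 0.05 but at most 0.1. Hist1h2bb had 0.977 FPKM in plus_Dox and 0.36 FPKM in minus_Dox cells (log2 fold 1.44, q = 0.059 in the authors' deposited table). Hist1h2bk had 1.28 FPKM in plus_Dox and 0.581 FPKM in minus_Dox cells (log2 fold 1.14, q = 0.079 in the authors' deposited table). Hist1h2bf, with the highest finite log2 fold among tested members at 2.01 in the authors' deposited table (SE 0.81, q = 0.084), had 0.487 FPKM in plus_Dox and 0.121 FPKM in minus_Dox cells. Hist1h2bp, with a log2 fold of 1.42 in the authors' deposited table (SE 0.79, q = 0.27), was further from the threshold, at 0.617 FPKM in plus_Dox and 0.231 FPKM in minus_Dox cells. Hist1h2bb, Hist1h2bk, Hist1h2bf and Hist1h1a are the 4 members that pass at q of 0.1 but not at 0.05.

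Histone H3 rows summed to 9.97 FPKM in plus_Dox and 4.43 FPKM in minus_Dox cells, a ratio of 2.25, where the ratio was 1.48 for H2A, 1.39 for H4, 1.27 for H2B and 1.18 for H1 rows. Without Hist1h3c the H3 ratio was 1.75, from 4.75 FPKM in plus_Dox and 2.72 FPKM in minus_Dox cells. No test compares the types. Of 10 tested H3 rows 1 passed, 8 had the higher level in plus_Dox cells, and the median log2 fold was 0.83 over the 9 with a finite value. Hist1h3a had 1.26 FPKM in plus_Dox and 0.708 FPKM in minus_Dox cells, and Hist1h3i had 1.01 FPKM in plus_Dox and 0.45 FPKM in minus_Dox cells. Their log2 folds in the authors' deposited table were 0.83 (q = 0.20) and 1.17 (q = 0.11).

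The H3 gene Hist1h3b went the other way, at 0.0499 FPKM in plus_Dox and 0.267 FPKM in minus_Dox cells (log2 fold -2.42 with an SE of 1.01 in the authors' deposited table, q = 0.10). It did not pass, and lies between the H2A gene Hist1h2ab and the H4 gene Hist1h4b in the same stretch of the cluster as Hist1h3c. Hist2h3b was tested with 0.298 FPKM in plus_Dox and is listed at 0 in minus_Dox cells, in a row that shares its span with Hist2h2bb.

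Among the 13 tested H4 rows Hist1h4b passed, and the level was higher in plus_Dox cells in 11, with a median log2 fold of 0.73. The most abundant H4 gene, Hist1h4i, had 3.92 FPKM in plus_Dox and 3.71 FPKM in minus_Dox cells (log2 fold 0.08, SE 0.29 in the authors' deposited table). Hist1h4d had 2.32 FPKM in plus_Dox and 1.64 FPKM in minus_Dox cells, and Hist4h4, the sole Hist4 gene, had 1.97 FPKM in plus_Dox and 1.19 FPKM in minus_Dox cells. Their log2 folds in the authors' deposited table were 0.51 (SE 0.39) and 0.73 (SE 0.48), and neither passed. Hist1h4h had 1.07 FPKM in plus_Dox and 0.581 FPKM in minus_Dox cells, while Hist1h4k had 1.08 FPKM in plus_Dox and 1.14 FPKM in minus_Dox cells.

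By cluster, all 3 genes that rose belong to Hist1 on chromosome 13. The cluster has 51 tested rows, with a median log2 fold of 0.80 and a summed level of 49.4 FPKM in plus_Dox and 33.3 FPKM in minus_Dox cells. Within it the rows fall into 3 blocks apart from Hist1h2al, and the 3 genes that rose are in the block at chr13:23622919-24026720 (mm9), whose 28 tested rows had a median log2 fold of 0.85. The medians of the other blocks were 0.53 over 17 tested rows (chr13:21807632-21929399) and 0.87 over 5 (chr13:22126982-22135545). In Hist2 on chromosome 3, where no row reached 1 FPKM, 6 rows were tested by the authors and none passed, with 1 higher and 0 lower at an unadjusted p under 0.05. The joined row of the H2A gene Hist2h2aa1 and the H3 gene Hist2h3c1.1 had 0.105 FPKM in plus_Dox and 0.241 FPKM in minus_Dox cells (log2 fold -1.20, SE 0.69 in the authors' deposited table), and Hist2h2be, an H2B gene, 0.472 FPKM in plus_Dox and 0.685 FPKM in minus_Dox cells. In Hist3 on chromosome 11 neither tested row passed, and the Hist3h2a row with Trim17 had 3.24 FPKM in plus_Dox and 2.88 FPKM in minus_Dox cells. A row that spans 2 genes gives no value for either alone.

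**Figure D3:**
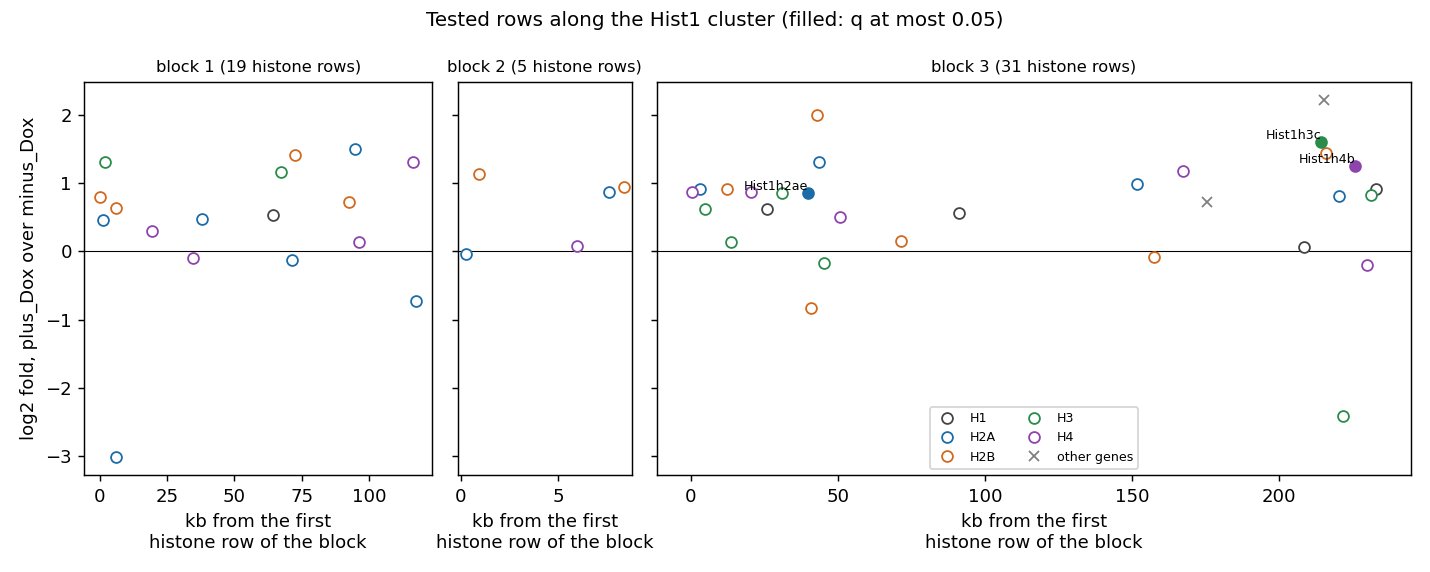
Log2 fold (plus_Dox over minus_Dox) of tested rows along the 3 blocks of the Hist1 cluster, against the distance in kb from the first histone row of each block, coloured by histone type, with filled points for a q-value of at most 0.05 and crosses for other genes. All 3 filled points lie in block 3, which also holds Hist1h3b at -2.42.

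The 121 other rows between the outermost rows of the 3 Hist1 blocks (chr13:21807632-24026720, mm9) were mostly silent, with 91 at 0 FPKM in at least 1 group, and 18 were tested. The authors' deposited table calls 1 of them higher, Abt1, a gene for a nuclear transcription activator, at 39.1 FPKM in plus_Dox and 25.3 FPKM in minus_Dox cells (log2 fold 0.63, q = 0.0040). It calls 1 lower, the zinc finger gene Zfp322a, at 8.05 FPKM in plus_Dox and 13.1 FPKM in minus_Dox cells (log2 fold -0.70, q = 0.0038). The median log2 fold of these neighbours was 0.32 over the 16 tested rows with a finite value. Of the 18 tested, 9 had the higher level in plus_Dox cells, where 41 of the 51 tested Hist1 rows did. That difference was not tested.

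Many H2A and H2B genes are paired head to head and share the DNA between their starts. Among the 60 member genes with a RefSeq promoter there are 9 such pairs, with starts 164 to 281 bases apart, and 7 have both genes tested. Members without one, among them Hist1h2bc, Hist2h2be and Hist1h2ap, were not searched, so the counts of pairs are incomplete. Both members had the higher level in plus_Dox cells in 4 pairs, 1 of each in 3 pairs, and both the lower level in none. Hist1h2ag and Hist1h2bj were alike, with log2 folds of 0.87 and 0.95 in the authors' deposited table. Hist1h2ae rose while its partner Hist1h2bg, whose start is 180 bases away, had 0.183 FPKM in plus_Dox and 0.324 FPKM in minus_Dox cells (log2 fold -0.83 with an SE of 0.71 in the authors' deposited table, q = 0.57). Hist1h2ah and Hist1h2bk also differed in sign, at -0.03 (SE 0.64) and 1.14 (SE 0.45), with no test of the difference within a pair. Of the 50-base stretches of Hist1h2ah 92.1% are shared with other genes, and of those of Hist1h2bk 74.2%. For the alike Hist1h2ag and Hist1h2bj the shares are 78.9% and 59.4%, so the values of both pairs carry that uncertainty.

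The annotated 3′ end was set beside the log2 fold, in classes chosen after the values were seen. Members whose GENCODE transcripts end less than 100 bases past the stem-loop had a median log2 fold of 0.91 (21 rows), those that run on for 100 bases or more 0.40 (20 rows), and those without the pattern 0.47 (17 rows). The class without the pattern mixes short annotated transcripts, such as Hist1h4k at 312 bases, with long ones, such as Hist2h2be at 2620. It is therefore not a class of 1 kind of 3′ end. Rows with a poly(A) hexamer in the last 40 bases, among them Hist3h2ba, Hist1h1c and Hist1h4i, summed to 31.7 FPKM in plus_Dox and 25.9 FPKM in minus_Dox cells, with a median log2 fold of 0.30 over 14 tested rows. Rows without a hexamer summed to 34.8 FPKM in plus_Dox and 21.1 FPKM in minus_Dox cells, with a median of 0.83. Hist1h2ae, which rose, has the hexamer, and Hist1h3c and Hist1h4b do not. The file does not show where the reads of a row end, so whether the captured transcripts were the short or the extended form was not measured.

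**Figure D4:**
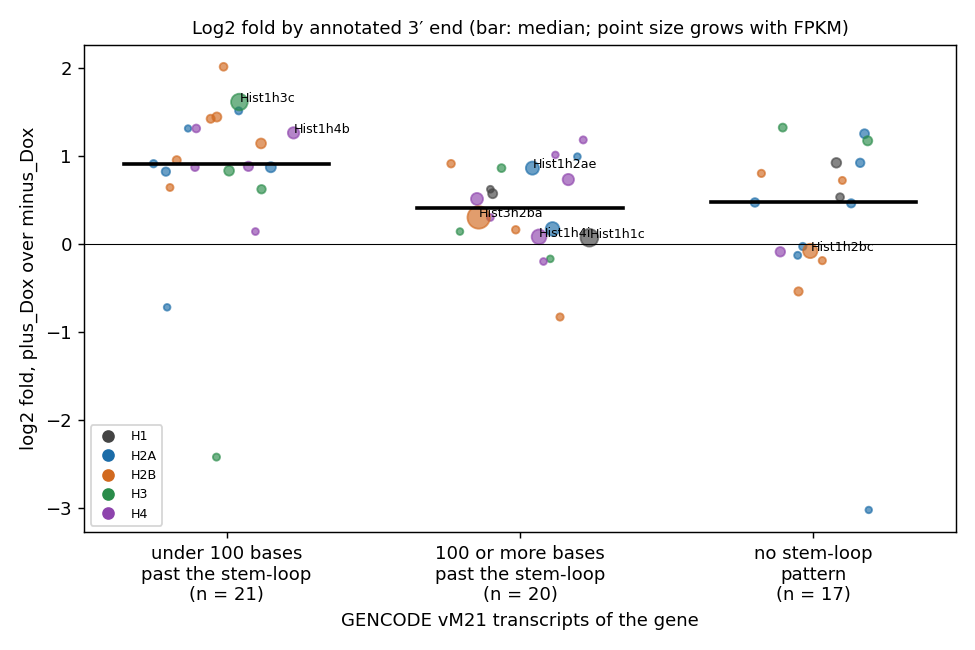
Log2 fold (plus_Dox over minus_Dox) of tested cluster histone rows in 3 classes of annotated 3′ end, with point area growing with FPKM in the higher group, colour for histone type and a bar at the median. The median is 0.91 for transcripts that end less than 100 bases past the stem-loop and 0.40 for those that run on further, with wide overlap between the classes.

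Short span went with the larger values as well. The 41 tested members with a row span under 1000 bases had a median log2 fold of 0.86, and the 18 with longer spans and a finite value 0.16. The same held for other genes: over 1104 other tested rows with a span under 1000 bases the median was 0.65. The members' transcripts had a median GC content of 57.8% and a median length of 534 bases, beside 50.3% and 2675 bases for the other tested rows. Among 383 other tested rows with transcripts of 300 to 800 bases and a GC content of at least 55%, bounds chosen after the values were seen, the median log2 fold was 0.79, and 91.4% had the higher level in plus_Dox cells. The 35 members within those bounds had a median of 0.83, and 77.1% had the higher level in plus_Dox cells. Of the 383 other rows 24.0% rose, and of the 35 members 2 rose (5.71%). A smooth trend on GC content and length, fitted only on rows that reached 1 FPKM, was then taken out of all log2 folds. After that the median of 57 members was -0.04, 28 of them were above 0 and none passed. What the trend stands for was not tested.

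**Figure D5:**
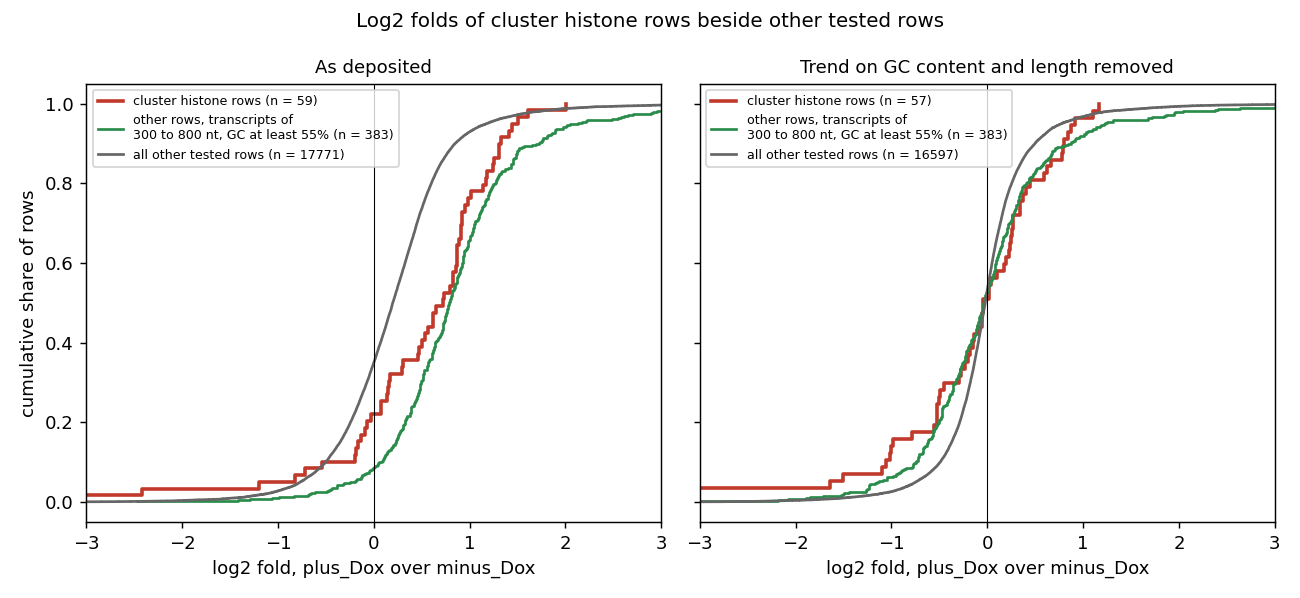
Cumulative share of rows against log2 fold (plus_Dox over minus_Dox) for cluster histone rows, other rows with transcripts of 300 to 800 nt and GC content of at least 55%, and all other tested rows, as deposited and after a trend on GC content and length was removed. As deposited, the cluster histones (median 0.72) lie near the other short GC-rich rows (0.79) and right of the rest (0.20); after the trend is removed their median is -0.04.

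The histone variants outside the clusters rose in 3 of 13 tested genes and fell in none. All 13 reached 1 FPKM in the higher group, where 12.3% of all tested rows rose. The level was higher in plus_Dox cells in all 13 as deposited, beside 66.3% of the tested rows at that level. It was above the general shift of 0.20 in 12, and the median log2 fold was 0.44. H2afj, an H2A variant gene on chromosome 6 at 136756769 to 136758595 (mm9), next to Hist4h4, had 32.3 FPKM in plus_Dox and 17.3 FPKM in minus_Dox cells (log2 fold 0.90, q = 7.3e-06 in the authors' deposited table). H2afy2, a macroH2A gene, had 15.0 FPKM in plus_Dox and 8.81 FPKM in minus_Dox cells (log2 fold 0.77, q = 0.0034 in the authors' deposited table). H3f3c, at 3.03 FPKM in plus_Dox and 0.234 FPKM in minus_Dox cells (log2 fold 3.70, q = 4.6e-07 in the authors' deposited table), is a near copy of other H3.3 genes, so that its value is uncertain. After median-ratio scaling H2afy2 no longer passed, and with the GC and length trend removed only H3f3c of these did. H2afz, the most abundant variant and named after its value was seen, had 2830 FPKM in plus_Dox and 2060 FPKM in minus_Dox cells and did not pass (log2 fold 0.46, q = 0.24 in the authors' deposited table).

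Of 16 tested genes for histone mRNA transcription and 3′ end processing none rose and 1 fell, where 8.98% of all tested rows rose and 3.22% fell. Casp8ap2 (FLASH), needed for cleavage of histone pre-mRNA, had 7.64 FPKM in plus_Dox and 11.3 FPKM in minus_Dox cells (log2 fold -0.56, q = 0.049 in the authors' deposited table). That call was lost with the trend on GC content and length removed. Slbp, the stem-loop binding protein gene, had 76.6 FPKM in plus_Dox and 72.8 FPKM in minus_Dox cells, and Npat, the histone transcription coactivator gene, 6.06 FPKM in plus_Dox and 8.81 FPKM in minus_Dox cells. Neither passed, and both were named after their values were seen.

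No call was made in the authors' test among 19 tested histone chaperone genes, with 1 higher and 0 lower at an unadjusted p under 0.05 and a median log2 fold of 0.08. Set and Nap1l1, the most abundant of them, did not pass: Set had 1190 FPKM in plus_Dox and 1160 FPKM in minus_Dox cells, and Nap1l1 had 476 FPKM in plus_Dox and 571 FPKM in minus_Dox cells. Of 22 tested genes of S phase and replication 1 rose, Tk1 (thymidine kinase), at 75.0 FPKM in plus_Dox and 46.9 FPKM in minus_Dox cells (log2 fold 0.68, q = 0.028 in the authors' deposited table). Their median log2 fold was 0.21, beside 0.20 over all tested rows, and Tk1 did not pass after median-ratio scaling. Of 14 tested polyadenylation genes 1 rose, Cpsf4, at 57.5 FPKM in plus_Dox and 40.2 FPKM in minus_Dox cells (log2 fold 0.52, q = 0.046 in the authors' deposited table), with a median of 0.05. Cpsf4 did not pass after that scaling, and with the GC and length trend removed Nudt21, another gene of the list, passed in its place. All tested chaperone, S phase and polyadenylation genes reached 1 FPKM in the higher group, where 12.3% of all tested rows rose.

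Cell type markers moved in the same comparison. All 8 pluripotent stem cell markers reached 1 FPKM in at least 1 group, as the line's label has it. Pou5f1, at 1510 FPKM in plus_Dox and 820 FPKM in minus_Dox cells, did not pass the authors' test (q = 0.055). Of 7 tested, 2 rose and 1 fell. Nanog (110 FPKM in plus_Dox and 28.6 in minus_Dox) and Utf1 (362 and 260 FPKM) rose. Sox2 fell (30.9 FPKM in plus_Dox and 56.2 in minus_Dox). Dnmt3b is listed at 427 FPKM in plus_Dox and at 0 in minus_Dox cells. It was left untested with the status HIDATA, given to loci with too many fragments, so that 0 is not a measured absence. All 7 primitive streak markers rose, where 8.98% of all tested rows did, with a summed level of 121 FPKM in plus_Dox and 19.4 FPKM in minus_Dox cells and none at 0. Of 7 tested fibroblast feeder markers none passed in the authors' test, with 2 higher and 0 lower at an unadjusted p under 0.05, and the sum of all 8 listed was 36.3 FPKM in plus_Dox and 29.2 FPKM in minus_Dox cells. Of 5 tested primitive endoderm markers 1 rose and none fell. Of 4 tested male germ cell markers none passed, with 0 higher and 1 lower at that p, and Tnp1 is listed at 0 in plus_Dox cells. The part of any change in cell makeup in the histone levels was not tested.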

How the data were processed

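RNA of 6 libraries (3 plus_Dox and 3 minus_Dox) was captured on oligo-dT beads and copied with random primers, per the labels' protocols. Cuffdiff, Cufflinks 2.0.2, TopHat2 2.0.8, Picard, Bowtie and mm9 are named, per the submitters' processing notes, with no role. Annotation and strand setting are not given in the sources used here. What the authors deposited is 1 table with an FPKM value per group, a log2 fold and a test statistic (used here as scores, since some are infinite), a p-value and a q-value per row, per the file headers. The q-values are Benjamini-Hochberg values over the 18114 rows tested, checked against the p-values. With no single-library columns the authors' two-sided test was used in place of a refit, and a call is a q-value of at most 0.05. Whether libraries came from separate cultures is not stated, so the p-values cannot be read as covering the spread between cultures. The library depths are unknown.

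The SE was computed as log2 fold over statistic, and 95% intervals assume a normal log2 fold. Row starts are 0-based in the file and are given 1-based. GC content, length, stem-loops and shared 50-base stretches come from GENCODE vM21, promoters from RefSeq GRCm38.p6. GRCm38 coordinates are given for sequences only, and mm9 ones for rows. Transcript properties were found for 57 of the 59 members with a finite fold. Trends were splines with 6 knots (scikit-learn 1.9.0). Whether removing a trend also takes out a change shared by rows of like GC content and length was not tested. Scaling subtracted 0.20, the median over 12240 tested rows that reached 1 FPKM. The interval of Hist1 neighbours leaves out Hist1h2al, which lies far from the other rows, and this was decided after seeing the positions.

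Members, lists and tests were chosen with earlier results of these data known. Every member could be named; full values were given for those called or with at least 1 FPKM. From other lists up to 5 called genes were named, or the 2 most abundant if none was called.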

Additional observations from a re-analysis of the deposited data

How the results depend on the processing

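No paired analysis was possible because the table holds 1 value a group, and for the same reason no library could be left out in turn. The number of members that rose, 3, all in Hist1, was 1 at a q-value of at most 0.01, with at least 5 FPKM, after median-ratio scaling and with a trend on GC content or on length alone removed. It was 0 with both trends removed, which also left 0 of the H3 rows, and 7 at a q-value of at most 0.1, with 1 in H1 and 3 in H2B. The H2A call was lost (0) at 0.01, at 2-fold, at 5 FPKM, after scaling and with each trend removed, and the H4 call (0) under the same settings except 2-fold. No member fell under any of these settings. Over all rows the split of higher against lower calls was 1626 against 584 as deposited, 618 against 1087 after scaling and 207 against 158 with both trends removed.

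The median log2 fold of the members, 0.72, was -0.04 with both trends removed, 0.52 after scaling, 0.25 with the GC trend and 0.24 with the length trend removed. It was 0.18 on log2(FPKM + 1), 0.49 on log2(FPKM + 0.1) and, in an alternative chosen after seeing the data, 0.59 over rows with under 50% of 50-base stretches shared. With both trends removed, log2 folds turned to -0.05 for Hist1h2ag and Hist1h3a, -0.50 for Hist3h2ba, -0.45 for Hist1h1c and -0.52 for Hist1h4i. The GC trend alone gave -0.21 for Hist3h2ba, -0.36 for Hist1h1c and -0.26 for Hist1h4i, and the length trend alone -0.28, -0.31 and -0.48 in that order. Scaling gave -0.12 for Hist1h1c and Hist1h4i and -0.03 for the Hist3h2a row. None of these had passed the test.

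Outside the clusters, histone variants that rose were 2 after scaling, without H2afy2, and 1 with both trends removed. Histone mRNA processing genes that fell were 2 after scaling and 0 with both trends removed. The S phase call was lost (0) both ways, and for polyadenylation genes scaling left 0 higher and 1 lower, and with both trends removed the 1 higher call was Nudt21 in place of Cpsf4. The causes were not tested. Most members lie under 1 FPKM, where a difference of the size of their median was mostly not detectable.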
